A study of Mus musculus with 2 samples.

Results

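The genes described here are 10 of the 19169 that the processed table lists for cells of injured mouse muscle. They were chosen by name, as signals to muscle stem cells (MuSCs) and their receptors: the fibroblast growth factor (FGF) ligands Fgf1, Fgf2, Fgf7, Fgf10 and Fgf18, the hepatocyte growth factor Hgf, the HGF receptor Met, and the FGF receptors Fgfr1, Fgfr2 and Fgfr4. All 10 were present in the table. Gastrocnemius muscle of wild-type (WT) mice and of mice without GSDME (GSDME-KO) was studied after cardiotoxin (CTX), a venom toxin that kills muscle fibers and sets off their regrowth. The knockout is global, the WT mice were C57BL/6J, and the muscle was taken on day 14 after injury, a day that the labels do not give. Single cells of the digested muscle were sequenced on the 10x droplet platform, in which a unique molecular identifier (UMI) stands for 1 captured RNA molecule, and each genotype had 1 library. There were 5 mice per group, and the sources used here do not say how many of them entered a library. With no replicate libraries, no test between the genotypes was possible and no p-value is given.

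FGFs bind receptor tyrosine kinases together with heparan sulfate chains on cell-surface carriers such as syndecans, and signal through adaptors to the MAP kinase cascade, which in turn induces its own inhibitors of the Sprouty, Spred and Dusp families. HGF is made as an inactive precursor that is bound by matrix, cut by serine proteases such as urokinase, and read by MET. In muscle, HGF is known as a signal that wakes quiescent MuSCs, FGF2 as a signal that keeps them dividing, and Sprouty1 as a brake that helps them return to quiescence.

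The WT-labelled library held 6354 cells and 44758518 UMIs, and the GSDME-KO-labelled library 7078 cells and 50930010 UMIs, with medians of 5740 and 5962.5 UMIs per cell. Levels are UMIs of a gene per 1000000 UMIs (CPM), summed over the cells of a type in a library, with exact 95% Poisson intervals. Ratios are log2 of the CPM in the GSDME-KO-labelled library over that in the WT-labelled library, with the exact binomial interval of the UMIs. All intervals cover counting error only, not the spread between mice. Gsdme, the targeted gene, had 225 and 237 UMIs in all, or 5.03 CPM (4.39 to 5.73) and 4.65 CPM (4.08 to 5.29). Its RNA was thus not detectably lower in the GSDME-KO-labelled library, so the direction of each ratio is taken from the labels. Only 4 cell barcodes occurred in both libraries. Clusters were drawn without the 10 genes and without the rest of their pathway, and named from marker genes. The named types that reached 50 cells in both libraries were FAP-like (fibro-adipogenic progenitors, the connective tissue cells between fibers; 1866 and 2353 cells, WT label first), tenocyte-like (445 and 397), endothelial-like (1206 and 1205), lymphatic endothelial-like (83 and 80), pericyte and smooth muscle-like (475 and 546), MuSC-like (248 and 245), Schwann-like (197 and 156), macrophage-like (863 and 1045), dendritic-like (115 and 126) and T cell-like (82 and 86). Clusters without a name held 10.1% and 9.32% of the cells. The larger pericyte and smooth muscle-like cluster, led by Rgs5 (291 and 344 cells), also carried endothelial markers. Their mean log2 fold over the other cells was 1.71, beside 2.89 for its own markers. The 10 leading genes of the MuSC-like cluster included its markers Myod1, Des, Pax7 and Cdh15, and also Myog, a gene of differentiating myoblasts.

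Most UMIs of the 6 ligands lay in FAP-like cells, and Fgfr4, alone of the 4 receptors, had most of its UMIs in MuSC-like cells. FAP-like cells held 92.4% (95% interval, 85.5 to 96.7) of the Fgf10 UMIs in the WT-labelled library and 93.5% (88.1 to 97) in the GSDME-KO-labelled library. Their shares were 86.6% and 88.8% for Fgf7, 78.5% and 77.4% for Fgf2, 74.4% and 80.8% for Fgf18, 54.9% and 70.8% for Fgf1, and 57.9% and 66.1% for Hgf. MuSC-like cells held 72.5% (67.8 to 76.8) and 70.4% (65.4 to 75.1) of the Fgfr4 UMIs. For Met the largest share, 41.4% and 33.6%, lay in tenocyte-like cells, and MuSC-like cells held 22.3% and 23.1%. FAP-like cells held 55.8% and 64.5% of the Fgfr1 UMIs, MuSC-like cells 12.2% and 9.23%. Such shares move with the number of cells captured of each type and with their RNA content, and in a suspension of digested muscle intact fibers are mostly lost, so that the shares are of the cells captured and not of the tissue.

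**Figure D1:**
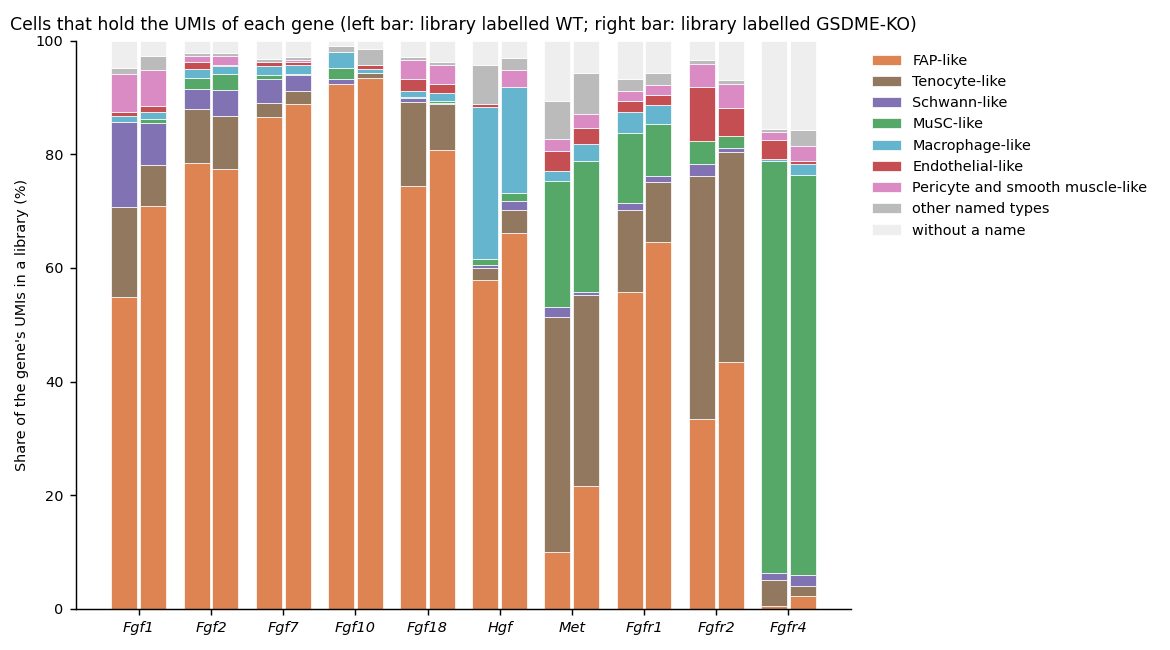
Share (%) of the UMIs of each gene that lay in each cell type, as stacked bars, with the WT-labelled library on the left and the GSDME-KO-labelled library on the right of each pair. FAP-like cells fill most of the bars of the 6 ligands, and MuSC-like cells 72.5% and 70.4% of the Fgfr4 bars.

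Counted per UMI instead, the same cell type led in both libraries for 7 of the 10 genes. In 4 of them (Fgf1, Fgf18, Fgfr2 and Fgfr4) it also stood at least 2-fold above the next type in each library, a pattern that 13.9% of the 13380 genes with at least 100 UMIs had. Members differed widely in this respect. Fgfr4 in MuSC-like cells stood 33.9-fold and 22.7-fold above the next type, whereas Fgfr1 there stood only 1.53-fold and 1.8-fold above.

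**Figure D2:**
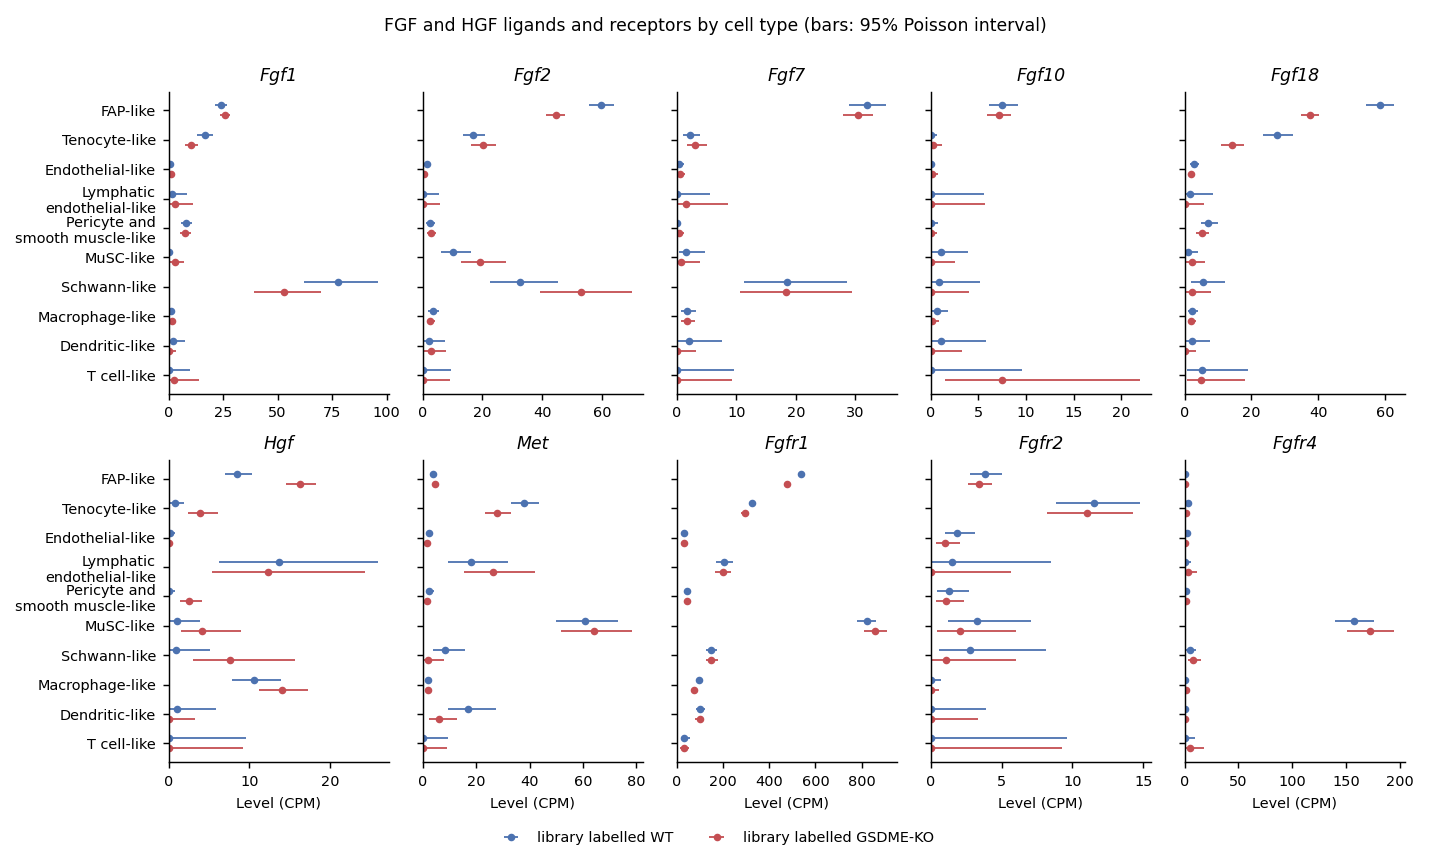
Level (CPM) of the 10 genes in the 10 cell types compared, with 95% Poisson intervals as bars. Fgfr4 stood out in MuSC-like cells, Fgf1 in Schwann-like cells and Fgf18 in FAP-like cells, and Hgf in FAP-like cells was higher in the GSDME-KO-labelled library (16.3 against 8.53 CPM).

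Hgf, the MET ligand, had the largest ratio in FAP-like cells among the 9 members with at least 50 UMIs there. It had 110 UMIs with the WT label and 298 with the GSDME-KO label, or 8.53 CPM (7.01 to 10.3) and 16.3 CPM (14.5 to 18.3), intervals that do not overlap. The log2 ratio was 0.94 (0.62 to 1.27), and 124 of 11515 genes, 1.08%, had a higher ratio in these cells. Hgf UMIs were seen in 84 of 1866 FAP-like cells (4.5%) and 194 of 2353 (8.24%). After each cell was thinned to 1000 UMIs these shares were 0.584% (0.281 to 1.07) of 1711 cells and 1.86% (1.33 to 2.51) of 2210 cells, with 155 and 143 shallower cells left out. No Hgf UMI was found in T, B and NK-like cells together, of which there were 153 and 169. After thinning, the exact upper bounds of their shares were 2.41% and 2.17%. These bounds lie above the thinned FAP-like shares, so those shares do not set FAP-like cells apart from them. By level the upper bounds were 5.54 and 4.87 CPM, below the FAP-like intervals. Median depth of FAP-like cells was 6831 UMIs in the WT-labelled library and 7759 in the GSDME-KO-labelled library. The ratio depended on how cells were weighted: the mean over cells, in which shallow cells count as much as deep ones, gave 0.58, just under 1.5-fold.

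Outside FAP-like cells Hgf was carried mainly by macrophage-like cells, with 51 and 84 UMIs, 10.6 CPM (7.87 to 13.9) and 14 CPM (11.2 to 17.3), a log2 ratio of 0.40 (-0.12 to 0.94) that is within counting error of 0. Tenocyte-like cells had 4 and 19 Hgf UMIs (0.732 and 3.93 CPM; log2 ratio 2.42, 0.83 to 4.44), fewer than the 50 UMIs set for reading a ratio. In pericyte and smooth muscle-like cells there were 0 UMIs in 475 cells of the WT-labelled library and 14 UMIs, held by only 4 of 546 cells (0.733%), in the GSDME-KO-labelled library. Of these 14 UMIs, 12 lay in 3 of 202 cells of the cluster led by the smooth muscle genes Acta2 and Myh11, so no level of the type is read from them. Lymphatic endothelial-like cells had 13.7 CPM (6.26 to 26) and 12.3 CPM (5.32 to 24.3) of Hgf, on 9 and 8 UMIs, with no detectable difference. By mean level they stood first and FAP-like cells next, but their intervals overlap those of FAP-like and macrophage-like cells, and the order of these 3 types is not resolved. Endothelial-like cells, 1206 and 1205 in number, had 1 and 0 Hgf UMIs, which limits their level to 0.747 and 0.523 CPM.

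Fgf18, a ligand best known from cartilage, bone and lung, moved the other way. Its level in FAP-like cells was 58.6 CPM (756 UMIs) in the WT-labelled library and 37.5 CPM (685 UMIs) in the GSDME-KO-labelled library, a log2 ratio of -0.64 (-0.79 to -0.49), and -0.49 after thinning. In tenocyte-like cells, which stood second, it was 27.6 CPM (151 UMIs) and 14.1 CPM (68 UMIs), a ratio of -0.97 (-1.41 to -0.55), with 85 of 9402 genes lower still. Thinned to 1000 UMIs, FAP-like cells with an Fgf18 UMI were 4.32% (3.41 to 5.4) and 3.12% (2.44 to 3.93), against 26% and 21.1% unthinned. The share in T, B and NK-like cells was 0% in both libraries when thinned and 1.31% and 1.78% unthinned. Pericyte and smooth muscle-like cells had 7.13 and 5.15 CPM (34 and 29 UMIs), a ratio of -0.47 with an interval from -1.24 to 0.29.

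Hgf and Fgf18 also differ in the sequence before their start sites, which is shown because these 2 ligands had the largest ratios of opposite sign in FAP-like cells. The 250 bases before each RefSeq start (build GRCm38.p6, the assembly also called mm10) are given 5′ to 3′ on the strand of the gene. Hgf lies on chromosome 5, 16553495 to 16619439, and its window is chr5:16553245-16553494 (plus strand). Fgf18 lies on chromosome 11, 33116970 to 33147400, and its window is chr11:33147401-33147650 (minus strand). Neither window overlaps an exon of the GENCODE annotation, and capitals mark the motifs found.
Hgf: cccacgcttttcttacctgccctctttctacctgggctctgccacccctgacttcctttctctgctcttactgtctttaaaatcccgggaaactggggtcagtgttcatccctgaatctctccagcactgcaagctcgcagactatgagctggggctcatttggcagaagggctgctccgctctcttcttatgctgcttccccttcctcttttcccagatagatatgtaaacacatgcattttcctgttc
Fgf18: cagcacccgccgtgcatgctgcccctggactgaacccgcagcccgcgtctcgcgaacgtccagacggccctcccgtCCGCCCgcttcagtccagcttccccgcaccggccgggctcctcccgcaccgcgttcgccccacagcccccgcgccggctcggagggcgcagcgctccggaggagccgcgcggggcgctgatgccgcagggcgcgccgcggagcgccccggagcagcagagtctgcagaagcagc
The Fgf18 window held 77.2% G and C and 37 CpG dinucleotides, the Hgf window 50.8% and 4, beside medians of 52.4% and 6 over 32851 such windows. The motifs searched on both strands were the GC box GGGCGG, the AP-1 site TGACTCA, the E-box CAGCTG and the TATA box TATAAA, which 32.7%, 4.46%, 13% and 12.4% of all windows hold. Fgf18 held 1 GC box, on the opposite strand, 174 bases before the start, and Hgf held none of the 4. A second Hgf window in the table was not printed because it overlaps an annotated exon. Of the 10 genes 8 had a window.

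Fgf2, the FGF most used to expand MuSCs in culture, was lower in FAP-like cells and higher in Schwann-like cells of the GSDME-KO-labelled library. FAP-like cells had 59.6 CPM (769 UMIs) and 44.4 CPM (810 UMIs), a log2 ratio of -0.43 (-0.57 to -0.28), short of 1.5-fold. Schwann-like cells had 32.4 CPM (35 UMIs) and 53 CPM (49 UMIs), a ratio of 0.71 (0.05 to 1.38). These UMIs lay almost all in the cluster led by Col20a1, Bche and Ajap1 (32 and 48 UMIs; 53.5 and 89.5 CPM) of Schwann-like cells. After thinning to 1000 UMIs per cell the Schwann-like ratio was -0.15. Only 7 of 161 and 5 of 134 Schwann-like cells then had an Fgf2 UMI, so the thinned direction is not resolved. FAP-like cells therefore led in the WT-labelled library and Schwann-like cells in the GSDME-KO-labelled library, where their intervals overlap. In MuSC-like cells themselves Fgf2 had 19 and 28 UMIs (10.3 and 19.3 CPM; ratio 0.90, 0.01 to 1.83), fewer than the 50 UMIs set for reading a ratio.

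Fgf1, an FGF that binds every FGF receptor, was highest in Schwann-like cells, at 77.8 CPM (84 UMIs) and 53 CPM (49 UMIs), 3.24-fold and 2.06-fold above FAP-like cells. The ratio in Schwann-like cells, -0.55 (-1.09 to -0.03), turned to 0.17 with the mean over cells. In FAP-like cells Fgf1 had 24 and 25.8 CPM (310 and 471 UMIs; ratio 0.10, -0.11 to 0.31). In tenocyte-like cells it had 16.5 and 10.1 CPM (90 and 49 UMIs; ratio -0.70, -1.23 to -0.18). After thinning this ratio came to -0.06, with an Fgf1 UMI left in only 6 of 436 and 5 of 380 cells. The smooth muscle cluster carried Fgf1 as well, at 44.7 and 32.7 CPM on 20 and 17 UMIs.

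Fgf7 and Fgf10, ligands of the epithelial form of FGFR2, had the largest shares of their UMIs in FAP-like cells among the 10 genes. Their ratios there were within counting error of 0 when all UMIs were used. Fgf7 had 31.9 CPM (412 UMIs) and 30.4 CPM (555 UMIs), a ratio of -0.07 (-0.26 to 0.12), with Schwann-like cells next at 18.5 and 18.4 CPM. Fgf10 had 7.52 CPM (97 UMIs) and 7.12 CPM (130 UMIs), a ratio of -0.08 (-0.47 to 0.32). After thinning to 1000 UMIs, 17 of 1711 FAP-like cells (0.994%) and 8 of 2210 (0.362%) had an Fgf10 UMI and the ratio came to -1.54, so the Fgf10 ratio is not settled. T cell-like cells had a higher Fgf10 level in the GSDME-KO-labelled library on only 3 UMIs, which does not separate them from FAP-like cells. No other type with 50 cells reached 10 UMIs of Fgf10 in a library.

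**Figure D3:**
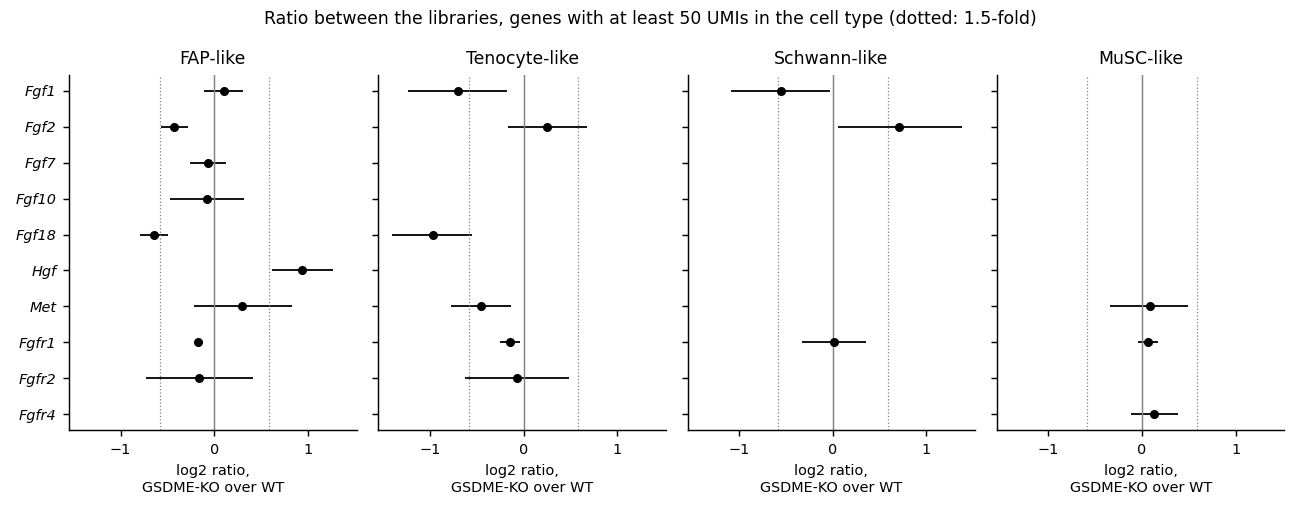
Log2 ratio of each gene, GSDME-KO-labelled over WT-labelled library, in 4 cell types, for genes with at least 50 UMIs there, with 95% intervals for counting error and 1.5-fold marked by dotted lines. Hgf in FAP-like cells (0.94) and Fgf18 in FAP-like and tenocyte-like cells (-0.64 and -0.97) lie on opposite sides of 0, and the 3 receptors in MuSC-like cells lie near 0.

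Of the 9 members with at least 50 UMIs in FAP-like cells (all but Fgfr4), 1, Hgf, was at least 1.5-fold higher in the GSDME-KO-labelled library and 1, Fgf18, at least 1.5-fold lower. Over all 11515 such genes the shares were 3.54% higher and 6.45% lower, and the median log2 ratio was -0.08 for the members and -0.06 for all genes. With ratios centred on the median gene Fgf18 came to -0.58, just short of 1.5-fold. In tenocyte-like cells 0 of 6 members were higher and 2, Fgf1 and Fgf18, lower, beside 7.06% and 4.05% of 9402 genes. In Schwann-like cells 1 of 3, Fgf2, was higher and 0 lower, beside 6.70% and 5.82% of 6138 genes. In MuSC-like cells 0 of 3 were higher and 0 lower, beside 13.1% and 9.80% of 6553 genes.

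FAP-like cells fell into 4 clusters, and the levels of Fgf1, Fgf2 and Fgf7 differed more among them than between the libraries. The largest (1031 and 1336 cells) was led by Cxcl14, Smoc2 and Eln, the next (327 and 461 cells) by Pi16, Efemp1 and Sbsn, genes of a progenitor-like fibroblast state, another (261 and 291 cells) by Clu, Myoc and Cyp2f2, and the last (247 and 265 cells) by Apod at a median of 932.5 UMIs per cell. Fgf1 had 62.3 and 61.1 CPM in the Pi16 cluster and 8.74 and 13.7 CPM in the Cxcl14 cluster. Fgf2 was likewise highest in the Pi16 cluster, at 128 and 97.3 CPM, against 37.4 and 28.3 CPM in the Cxcl14 cluster. Fgf7 had the opposite order, with 13.4 and 16.2 CPM in the Pi16 cluster, 33.6 and 29.9 CPM in the Cxcl14 cluster and 55.6 and 60.4 CPM in the Clu cluster. These orders were the same in both libraries, with intervals that do not overlap between the clusters named.

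Hgf was higher in the GSDME-KO-labelled library in each of the 3 deeper FAP-like clusters. It had 8.61 and 17.2 CPM in the Cxcl14 cluster (69 and 204 UMIs; ratio 1.0, 0.60 to 1.41), 6.68 and 13 CPM in the Pi16 cluster (19 and 53 UMIs; 0.96, 0.18 to 1.80), and 7.94 and 17.1 CPM in the Clu cluster (14 and 34 UMIs; 1.11, 0.17 to 2.12). In the shallow Apod cluster it had 28.1 and 21.5 CPM on 8 and 7 UMIs, a ratio of -0.39 (-2.08 to 1.27) that is not resolved. Fgf18 was lower by a ratio of -0.68 (-0.87 to -0.48) in the Cxcl14 cluster and -0.69 (-0.97 to -0.41) in the Pi16 cluster, and in the Clu cluster the ratio of -0.51 (-1.10 to 0.08) is within counting error of 0. Fgf2 had ratios of -0.40, -0.40 and -0.77 in these 3 clusters, with intervals below 0. With the clusters weighted alike in both libraries, chosen as an alternative once the data were known, Hgf stayed at 0.94 and Fgf18 at -0.66.

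**Figure D4:**
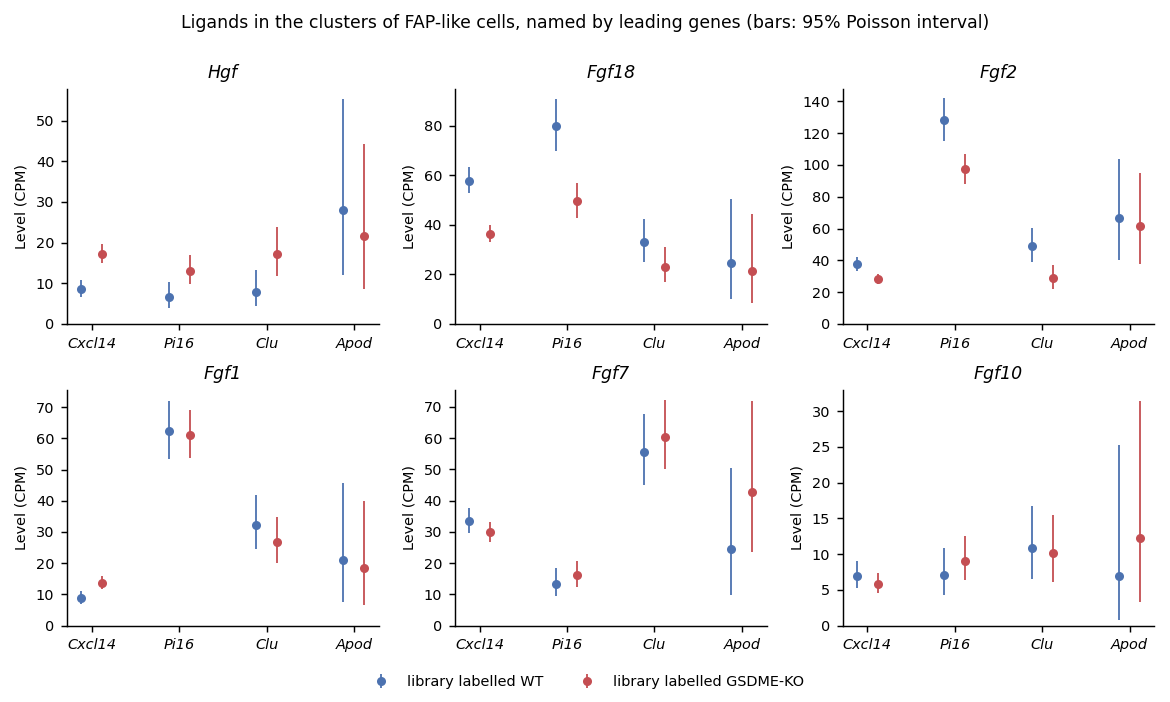
Level (CPM) of the 6 ligands in the 4 clusters of FAP-like cells, named by their leading gene, with 95% Poisson intervals as bars and colours for the libraries. Fgf1 and Fgf2 peak in the Pi16 cluster and Fgf7 in the Clu cluster in both libraries, and Hgf is higher in the GSDME-KO-labelled library in the first 3 clusters.

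The receptors of MuSC-like cells were at like levels in both libraries. Fgfr1, the main FGF receptor of mesenchymal cells (chromosome 8, 25518759 to 25575718), had 822 CPM (1516 UMIs) and 859 CPM (1248 UMIs) there, a log2 ratio of 0.06 (-0.04 to 0.17). Fgfr4, a receptor typical of the muscle lineage (chromosome 13, 55152818 to 55168759), had 157 CPM (290 UMIs) and 172 CPM (250 UMIs), a ratio of 0.13 (-0.12 to 0.38). Met (chromosome 6, 17463349 to 17573980) had 60.7 CPM (112 UMIs) and 64 CPM (93 UMIs), a ratio of 0.08 (-0.34 to 0.49). All 3 intervals include 0, and that of Met is the widest because its UMIs are the fewest.

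At least 1 of these 3 receptors was read in nearly every MuSC-like cell. Fgfr1 was found in 224 of 248 cells (90.3%; 85.9 to 93.7) in the WT-labelled library and 230 of 245 (93.9%; 90.1 to 96.5) in the GSDME-KO-labelled library, Fgfr4 in 158 and 140 cells, and Met in 80 and 69. All 3 were found in 53 cells (21.4%; 16.4 to 27) and 39 cells (15.9%; 11.6 to 21.1), and none of them in 11 and 8. Each of the 80 Met-positive cells of the WT-labelled library also had Fgfr1, as did 68 of 69 in the GSDME-KO-labelled library. Thinned to 1000 UMIs, Fgfr1 was found in 47.9% and 51.5% of MuSC-like cells, Fgfr4 in 17.4% and 14.9% and Met in 7.44% and 6.22%. In T, B and NK-like cells the thinned shares were 1.32% and 0.595% for Fgfr1 and 0% for Fgfr4 and Met. Median depths of MuSC-like cells were 6429.5 and 5484 UMIs.

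Outside MuSC-like cells the receptors were spread differently. Fgfr1 had 536 CPM (6916 UMIs) and 478 CPM (8726 UMIs) in FAP-like cells (ratio -0.17, -0.21 to -0.12), 326 and 295 CPM in tenocyte-like cells, and between 30.1 and 205 CPM in the other types. Macrophage-like cells had 95.2 and 76.6 CPM of Fgfr1 (ratio -0.31, -0.50 to -0.12). The cluster led by Folr2 and F13a1 had 154 and 96.2 CPM (319 and 251 UMIs; ratio -0.68, -0.93 to -0.44), and the cluster led by Ms4a7 and Ccl3 14.9 and 21 CPM. A small macrophage-like cluster led by Pf4 (29 and 33 cells) that also carried FAP markers had 389 and 330.2 CPM, and its part in the difference was not tested. Tenocyte-like cells had the next highest Met level, 38.1 and 27.9 CPM (208 and 135 UMIs; ratio -0.45, -0.77 to -0.13), against 3.88 and 4.76 CPM in FAP-like cells. Lymphatic endothelial-like cells had 18.2 and 26.2 CPM of Met on 12 and 17 UMIs, and dendritic-like cells 16.8 and 6.3 CPM on 16 and 7. Fgfr2 (chromosome 7, 130162451 to 130266808) was low throughout and highest in tenocyte-like cells, at 11.5 and 11 CPM (63 and 53 UMIs). Beyond MuSC-like cells Fgfr4 had at most 18 UMIs in a named type of a library. Clusters without a name held 15.5% and 15.8% of the Fgfr4 UMIs, mainly the cluster led by Gal and Asb5, which mixes lineages, and the cycling cluster led by Top2a.

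MuSC-like cells were clustered again into 5 groups, and their receptors varied among the groups. A group led by Fos, Bambi and Jun (74 and 71 cells) had the most Fgfr4 over both libraries, 259.5 CPM (221 to 302). Its Pax7 level was the highest by value, 359 CPM (314 to 408). That interval overlaps the one of the last group described below (321 CPM, 251 to 404). The group led by the differentiation genes Myog and Mymk (51 and 20 cells) had 128 CPM (105 to 155) of Fgfr4 and the lowest Fgfr1, 508 CPM (461 to 558). Groups led by Esm1 and Aqp1 (72 and 52 cells) and by Cxcl5 and Gal (48 and 68 cells) had 1056 and 989 CPM of Fgfr1. Met lay between 54.1 and 77 CPM in these 4 groups, with intervals that overlap. The last group (3 and 34 cells) was led by Rgs5, Cd74, H2-Aa and other genes of pericytes and immune cells, came almost wholly from the GSDME-KO-labelled library and held 4 of the 8 Hgf UMIs found in MuSC-like cells.

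Most measured feedback genes, which FGF and HGF signals are known to induce, were higher in MuSC-like cells of the GSDME-KO-labelled library. Of the 13 feedback inhibitors and targets listed, 9 had at least 50 UMIs. Of these, 6 were at least 1.5-fold higher and 0 lower, beside 13.1% of all genes higher. The median log2 ratio of the 9 was 0.63, beside 0.02 for all genes. This list, like the rest of the pathway list, was chosen with earlier results of these data known, so its counts are not independent of them. Spred1, an inhibitor of Ras signaling, had 175 CPM (323 UMIs) and 357 CPM (519 UMIs), a ratio of 1.03 (0.83 to 1.23). Spry1 had 106 CPM (196 UMIs) and 202 CPM (294 UMIs), a ratio of 0.93 (0.66 to 1.2), and the ETS factor Etv5 18.4 and 33.1 CPM (34 and 48 UMIs; 0.84, 0.18 to 1.52). The other 3, named after their values were seen, were the MAP kinase phosphatases Dusp5 (0.63, 0.33 to 0.92) and Dusp6 (0.73, 0.10 to 1.37) and Spred2, whose interval (-0.02 to 1.21) reaches 0. Il17rd, another FGF inhibitor, had 20.1 and 15.2 CPM (-0.40, -1.24 to 0.39).

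**Figure D5:**
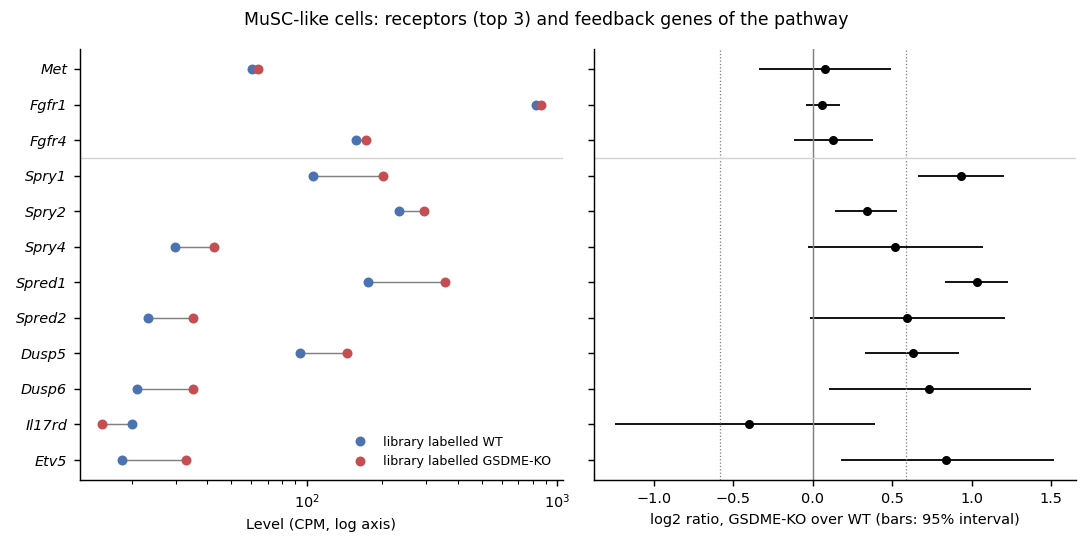
Level in MuSC-like cells (left, CPM on a log axis, 1 point per library) and log2 ratio between the libraries with 95% interval (right) of 3 receptors and the 9 feedback genes with at least 50 UMIs. The receptors lie near 0, whereas 8 of the 9 feedback genes lie above it, with Spred1 (1.03) and Spry1 (0.93) furthest out.

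Some feedback genes were also at least 1.5-fold higher in macrophage-like and Schwann-like cells. In macrophage-like cells 3 of 8 were at least 1.5-fold higher and 0 lower, beside 5.29% and 6.39% of all genes there. They were Spry1 (6.63 and 14 CPM, ratio 1.08, 0.47 to 1.71), Spred1 (102 and 197 CPM, ratio 0.95, 0.80 to 1.11) and Etv5 (10.2 and 17.2 CPM, ratio 0.76, 0.25 to 1.28). In Schwann-like cells 3 of 9 were higher and 0 lower, among them Dusp6 (69.5 and 164 CPM, ratio 1.24, 0.84 to 1.66) and Spry2 (177 and 331 CPM, ratio 0.90, 0.64 to 1.17), whereas Spry1 had 66.7 and 51.9 CPM (-0.36, -0.92 to 0.19). These genes were named after their values in these types were seen. Tenocyte-like cells had 1 of 11 higher and 0 lower (median ratio 0.36), beside 7.06% and 4.05% of all genes. Endothelial-like cells had 1 of 11 higher and 1 lower (0.23), beside 4.40% and 3.69%. Pericyte and smooth muscle-like cells had 0 of 12 higher and 0 lower (0.18), beside 5.16% and 3.7%. Lymphatic endothelial-like cells had 0 of 5 higher and 1 lower, beside 9.94% and 5.47%.

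The MuSC-like groups did not contribute alike to these ratios. Spry1 had a ratio of 0.61 (0.18 to 1.05) in the Fos group, 1.76 (1.19 to 2.36) in the Esm1 group, 1.09 (0.29 to 1.95) in the Cxcl5 group and 0.29 (-0.42 to 0.97) in the Myog group. Spred1 had 0.83 (0.50 to 1.17) and 1.16 (0.71 to 1.64) in the Esm1 and Cxcl5 groups and was not resolved in the Fos group (0.11, -0.47 to 0.69). Without the group that carries genes of other lineages, likewise chosen once the data were known, the ratios over all other MuSC-like cells were 0.97 (0.70 to 1.24) for Spry1, 0.86 (0.65 to 1.08) for Spred1 and 0.46 (0.14 to 0.78) for Dusp5, so Dusp5 was no longer past 1.5-fold. The feedback genes past 1.5-fold then again numbered 6, but Spry4 (0.61, on 50 and 53 UMIs) had taken the place of Dusp5. Of the listed genes 11 were then higher and 3 lower. After thinning to 1000 UMIs, which leaves few genes with enough UMIs, 2 feedback genes were past 1.5-fold, both higher. Counts without that group and after thinning are given without the number of genes measured and the share of all genes under the same setting. They show only how calls moved, and no result is read from them. In the Esm1 group the receptors did differ: Met had 95.9 and 46.7 CPM on 53 and 16 UMIs (-1.04, -1.94 to -0.21) and Fgfr1 1148 and 907 CPM (-0.34, -0.54 to -0.14). The libraries also differed in how MuSC-like cells were spread over the groups, with 51 and 20 cells in the Myog group, and in their median depth. The part of these in the ratios was not tested.

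Over the whole pathway list, 13 of 33 genes with at least 50 UMIs in MuSC-like cells were at least 1.5-fold higher and 2 lower, beside 13.1% and 9.80% of all genes there. Among heparan sulfate carriers 3 of 7 were higher, among them Sdc1 (28.2 and 56.5 CPM; ratio 1.0, 0.48 to 1.53) and Sdc4, a syndecan of MuSCs, named after its values were seen (1645 and 2564 CPM; 0.64, 0.57 to 0.71). Without the group that carries genes of other lineages Sdc4 came to 0.54 (0.46 to 0.61), short of 1.5-fold. Of the 3 HGF-activating genes measured 2 were higher, with Plat, tissue plasminogen activator, at 47.2 and 87.5 CPM (0.89, 0.49 to 1.30). Without that same group Plat came to 0.67 (0.24 to 1.11). Its ratio was 1.97 (0.97 to 3.11) in the Cxcl5 group, and its intervals in the Fos, Esm1 and Myog groups include 0. In FAP-like cells 0 of 43 listed genes were higher and 1 was lower, Fgf11 at 2.02 and 1.31 CPM (-0.62, -1.48 to 0.24), beside 3.54% and 6.45% of all genes, and the median ratio was 0.06. Spry4, a feedback inhibitor, had 28.9 and 19.9 CPM there (373 and 364 UMIs; -0.54, -0.75 to -0.32), Etv4 3.49 and 2.52 CPM (-0.47), the decoy receptor Fgfrl1 8.84 and 12 CPM (0.45) and Fgf16 5.66 and 7.67 CPM (0.44). In endothelial-like cells 2 of 38 were higher and 3 lower, beside 4.40% and 3.69% of 10123 genes. The 2 were Fgf9 (9.92 and 17.3 CPM; 0.80, 0.37 to 1.24) and Spred3 (0.69), and the lower ones included Sulf1, a heparan sulfate editing enzyme (10.1 and 5.81 CPM; -0.79, -1.38 to -0.22), and Dusp4, whose interval (-1.71 to 0.08) reaches 0. The feedback genes of FAP-like cells, 12 measured, had a median ratio of -0.02.

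Genes most like each member were sought by the lower Pearson r of the 2 libraries across the 10 cell types, on log2(CPM + 10). These types share libraries and differ in depth, so r is a description. Fgfr4 was most like Jsrp1, Myf5 and Chrna1, genes of the muscle lineage (r = 0.99 each), Fgf7 like Adamtsl2 and Mme (0.97), and Fgf18 like Slit3 (0.97), Hhipl1 and Fap (0.96). Fgf1 was most like Ppp2r2b and Ntrk2 (0.96), Fgf2 like Scrn1 (0.95), Fgfr2 like Spaca1 and Adamts3 (0.95), and Fgfr1 like Arsj (0.94) and Sox9 (0.93). Fgf10 was most like Ret (0.87), Met like Rai2 (0.86) and Hgf like Pyroxd2 (0.82), so that no gene followed these 3 as closely.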

How the data were processed

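Single-cell RNA libraries of gastrocnemius muscle after CTX were analysed, 1 labelled WT and 1 labelled GSDME-KO. The submitters' processing notes name Cell Ranger 2.1.1 and mm10. Per the study's methods, the authors made the matrix with a later Cell Ranger release, removed doublets with DoubletFinder and cells high in mitochondrial RNA, and clustered in Seurat. The authors deposited natural log values, ln of 1 plus the UMIs of a gene per 10000 UMIs of the cell, for 19169 genes in 13432 cells. UMIs were recovered from the value steps, within 0.286 of a whole UMI for all 29528482 values above 0. No further cell was removed. Depth was 385 to 83203 UMIs per cell in the WT-labelled library and 420 to 79159 in the other. This limits what can be read of genes with few UMIs.

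Barcode endings gave each cell's library. Cells were clustered with 2000 variable genes, 30 principal components, Harmony rewritten in numpy 2.4.6, 20 neighbors and Louvain clustering at resolution 0.8 (igraph 0.11.9, scikit-learn 1.9.0, scipy 1.17.1, Python 3.11.15), the 10 genes and their pathway list being kept out. Clusters were named from fixed marker lists where at least 3 markers stood 0.5 or more above the other clusters on the log2 scale, a rule set after the clusters were seen. A cluster also stayed without a name where more of its 10 leading genes were markers of another type, or where it mixed lineages. The same held where depth was low and no leading gene was a marker of its type. MuSC-like cells were clustered again with 20 components at resolution 0.5. UMIs were summed per type and library, and the steps were tested on simulated data. A ratio was read by size alone, at 1.5-fold, for genes with at least 50 UMIs over both libraries. Promoter windows came from RefSeq.

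Named genes are the 10 members, up to 5 listed pathway genes with the largest ratios in each of FAP-like, MuSC-like and endothelial-like cells, the 3 genes most like each member, and Gsdme. The members and lists were chosen with earlier results of these data known. Alternatives changed the resolution, integration, naming, doublets, depth, centring and UMI minimum, and took the mean over cells. One listed pathway gene and one cluster are not reported here.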

Additional observations from a re-analysis of the deposited data

Results flagged for a closer look

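Fgf2 had ratios on opposite sides of 0 in 2 cell types. In FAP-like cells the log2 ratio of the GSDME-KO-labelled over the WT-labelled library was -0.43, on 769 and 810 UMIs, and in Schwann-like cells it was 0.71, on 35 and 49 UMIs. The interval for counting error excluded 0 in each, but with 1 library per genotype the difference between the types was not tested. After thinning to 1000 UMIs per cell the FAP-like ratio was -0.27. The Schwann-like ratio was then -0.15, with an Fgf2 UMI left in only 7 of 161 and 5 of 134 cells, so its direction is not resolved there.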

How the results depend on the processing

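No paired analysis was possible because each genotype had 1 library, and for the same reason no library could be left out. Hgf in FAP-like cells kept its direction under every alternative run: 0.58 with the mean over cells, 1.33 without integration, 1.44 after thinning to 1000 UMIs, and 0.94 to 1.04 otherwise. Higher and lower stand here for at least 1.5-fold. The counts below are given without the share of all genes under the same setting. They show only how calls moved, and no result about the genes is read from them. With the mean over cells, 0 members were higher and 0 lower in FAP-like cells, Fgf1 in Schwann-like cells came to 0.17, and of the listed genes 4, 1 of them a feedback gene, were lower in MuSC-like cells. After thinning, the ratios in FAP-like cells were -0.27 for Fgf2, 0.12 for Fgf7, -1.54 for Fgf10 and -0.49 for Fgf18. Those in MuSC-like cells were -0.13 for Fgfr1 and -0.19 for Fgfr4. Fgf2 in Schwann-like cells came to -0.15, and in tenocyte-like cells Fgf1 came to -0.06 and Fgfr2 to -2.50. Few cells then had a UMI, 7 and 5 for Fgf2, 6 and 5 for Fgf1 and 12 and 2 for Fgfr2. No direction is read from these values. Thinning leaves few genes with 50 UMIs, and 0 members were then lower in FAP-like cells and 0 in tenocyte-like cells, where the Fgf18 ratio was still -0.97. Of the listed genes, thinned counts of higher and lower were 2 and 0 in FAP-like cells, 3 and 0 in MuSC-like cells (2 feedback genes higher) and 1 and 1 in endothelial-like cells.

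The 1 listed gene lower in FAP-like cells became 2 at resolutions 0.4 and 1.2 and 0 with marker scores, without doublets, without cells under 1000 UMIs and after centring. Centring left 0 members lower in FAP-like cells. At resolution 1.2 the count of members lower in tenocyte-like cells was 1. With marker scores 1 member was higher in MuSC-like cells and 0 listed genes were lower there. A minimum of 20 UMIs gave 1 member higher in tenocyte-like and 1 in MuSC-like cells, and 1 listed gene higher and 2 lower in FAP-like cells. A minimum of 1 UMI per library gave 2 members higher in FAP-like cells, 1 in tenocyte-like cells, and 3 higher and 2 lower in MuSC-like cells. It gave 2 listed genes higher and 5 lower in FAP-like cells, 4 lower in MuSC-like cells (1 a feedback gene), and 5 higher and 8 lower in endothelial-like cells. Ratios at that minimum can rest on very few UMIs, as for Fgf7 in MuSC-like cells (3 and 1 UMIs; -1.24, -6.95 to 2.40). The cause of these changes was not tested, apart from the lower UMI minimum, which admits more genes. The median gene's ratio was -0.06 in FAP-like cells.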

Other observations

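Among clusters without a name, the cluster led by Gal, Asb5 and Sox11 (75 and 72 cells, median depth of 14921 UMIs) had 23.4 and 32.2 CPM of Fgfr4, 15.6 and 13.8 CPM of Met and 319 and 325 CPM of Fgfr1 in the WT-labelled and GSDME-KO-labelled libraries. The cycling cluster led by Top2a and Hist1h2ap (57 and 36 cells) had 31.5 and 31.9 CPM of Fgfr4 and 29.6 and 9.11 CPM of Met. In the Cxcl14 cluster of FAP-like cells Met had 12 and 39 UMIs, or 1.5 and 3.29 CPM. Neutrophil-like cells, 26 and 32 in number, had 3 and 0 Hgf UMIs.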
